A study of Arabidopsis thaliana with 3 samples.

Results

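The genes described here are the 29 Aux/IAA genes (IAA1 to IAA20 and IAA26 to IAA34) and 13 ARF genes (ARF1 to ARF8, ARF10, ARF11, ARF16, ARF17 and ARF19) of Arabidopsis thaliana, 42 of the 27444 nuclear protein-coding genes. They were chosen by gene identifier, and all 42 carried an auxin or indole-3-acetic acid name with the right number in the RefSeq gene table. The assay was DNA affinity purification sequencing (DAP-seq) with the growth-regulating factor GRF5, a plant transcription factor. In it, purified protein binds sheared genomic DNA in the test tube and peaks of recovered fragments are called. The GRF5 libraries were 2 replicates, made with His-tagged GRF5 from Escherichia coli and root DNA of wild-type Col-0 seedlings moved at an age of 7 days to 0.2 mM nitrate for 3 days. They were set against 1 input library of Col-0 root DNA from seedlings grown under the same protocol. Library titles and protocols describe DAP-seq, whereas the design text of the series gives the names on the peak lists to a chromatin immunoprecipitation. The titles were followed, and peaks are therefore read as recovery of purified DNA, not as occupancy in root cells. The titles name the GRF5 libraries as biological replicates. The labels do not say whether the replicates came from separate protein or DNA preparations, so part of their spread may be technical.

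Aux/IAA proteins are short-lived nuclear repressors of the auxin response. They bind ARF transcription factors, which sit on auxin response elements of DNA, and hold their targets off through TOPLESS-type co-repressors. Auxin joins an Aux/IAA protein to a TIR1/AFB receptor, the Aux/IAA protein is ubiquitinated and destroyed, and the ARF is freed. In roots this circuit sets meristem size, gravitropism, root hair growth and the start of lateral roots.

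Each replicate had its own list of peaks called against the input. The value of a peak is the fold enrichment deposited by the authors, the fragment pileup at the summit over the local background from the input. Peaks of both lists that overlapped by 50% or more of the shorter peak were paired 1 to 1, longest overlap first. Each pair was counted as 1 shared peak. It was a shared promoter peak of a gene when the authors had annotated it to that gene's promoter in both lists. Replicate 1 had 64 peaks annotated to the 42 genes among 28349 nuclear peaks, and replicate 2 had 53 among 27054. The median summit pileup of these peaks was 86.5 fragments in replicate 1 (85 over all nuclear peaks) and 82 in replicate 2 (81 over all). A pileup of this size is the only measure of depth used here.

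At least 1 GRF5 peak was annotated to 40 of the 42 genes in one list or the other, against 78.8% of all nuclear protein-coding genes. Replicate 1 had peaks at 38 of them (90.5%, against 70.0%) and replicate 2 at 36 (85.7%, against 68.2%). IAA10 (AT1G04100) and IAA31 (AT3G17600) had no peak in either list, a state shared by 21.2% of all genes. Both lists carried a shared peak at 30 of the 42 genes (71.4%, against 54.4% of all genes), and at 20 of these the shared peak touched the promoter (47.6%, against 35.2%). More than 1 shared peak was found at 4 genes, IAA20, IAA27, IAA34 and ARF11 (9.52%, against 16.9%). None of the 42 had a shared peak with a mean fold enrichment of at least 3, a level reached by 1.32% of all genes. The shares describe 1 pair of libraries, genes are not replicates, and no test was made of them.

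**Figure D1:**
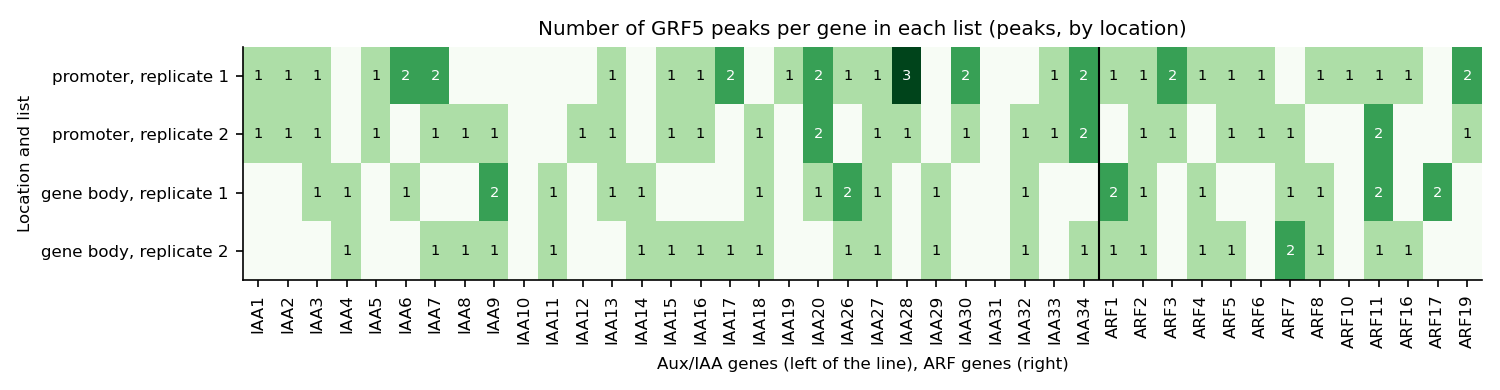
Number of GRF5 peaks annotated to each gene (columns) in each list (rows), split into peaks that touch the promoter and peaks in the gene body only. Empty cells hold no peak: IAA10 and IAA31 are empty throughout, and IAA28 has 3 promoter peaks in replicate 1 and 1 in replicate 2.

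Of the Aux/IAA genes, 14 of 29 (48.3%) had a shared promoter peak. They were IAA1 (AT4G14560), IAA2 (AT3G23030), IAA3 (AT1G04240), IAA5 (AT1G15580), IAA7 (AT3G23050), IAA13 (AT2G33310), IAA15 (AT1G80390), IAA16 (AT3G04730), IAA20 (AT2G46990), IAA27 (AT4G29080), IAA28 (AT5G25890), IAA30 (AT3G62100), IAA33 (AT5G57420) and IAA34 (AT1G15050). A further 7 had a shared peak over coding exons or introns and no shared promoter peak (24.1%, against 19.1% of all genes). They were IAA4 (AT5G43700), IAA9 (AT5G65670), IAA14 (AT4G14550), IAA18 (AT1G51950), IAA26 (AT3G16500), IAA29 (AT4G32280) and IAA32 (AT2G01200). Among them, IAA26 had a promoter peak of 1.74-fold in replicate 1 alone. IAA9, IAA18 and IAA32 had promoter peaks of 2.17-, 1.96- and 2.20-fold in replicate 2 alone. Of the ARF genes, 6 of 13 (46.2%) had a shared promoter peak: ARF2 (AT5G62000), ARF3 (AT2G33860), ARF5 (AT1G19850), ARF6 (AT1G30330), ARF11 (AT2G46530) and ARF19 (AT1G19220). The genes ARF1 (AT1G59750), ARF8 (AT5G37020) and ARF16 (AT4G30080) had a shared peak in the gene body alone (23.1%). The shares of both families with a shared promoter peak were thus above the 35.2% of all genes and close to each other.

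Gene length moved with the share of genes that had a peak outside the promoter. ARF genes had a median length of 4736 bp, Aux/IAA genes 1740 bp and all nuclear protein-coding genes 2078 bp. A shared peak in any region was present at 9 of 13 ARF genes (69.2%), against 70.3% of the 5627 genes within the length range of the ARF family and 54.4% of all genes. For Aux/IAA genes, 21 of 29 (72.4%) had one, against 50.9% of the 16900 genes within their length range. Counting shared peaks over coding exons or introns, 12 of 29 Aux/IAA genes had one (41.4%, against 26.9% in their length range). Of the ARF genes, 4 of 13 had one (30.8%, against 55.5% in their length range and 32.2% of all genes). The ARF count leaves out ARF2, whose overlapping gene-body peaks were not paired with each other. Promoter peaks hardly varied with length: 35.2% of genes in the Aux/IAA range and 35.6% in the ARF range had a shared one. Beside genes in their own length range, ARF genes had the higher share for promoter peaks and not for peaks in any region.

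**Figure D2:**
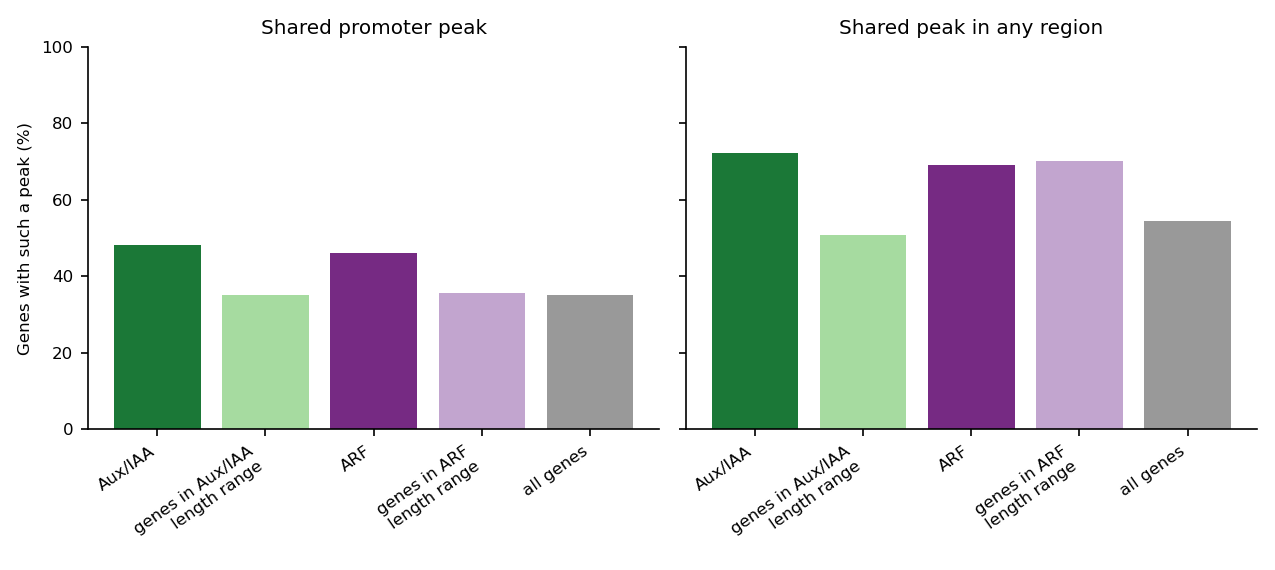
Percent of genes with a shared promoter peak (left) and with a shared peak in any region (right), for Aux/IAA genes, ARF genes, genes within the length range of each family, and all nuclear protein-coding genes. Aux/IAA genes are above their length range in both panels (48.3 and 72.4%, against 35.2 and 50.9%), while ARF genes are level with theirs in the right panel (69.2%, against 70.3%).

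The promoter counts of the ARF family depended on the list. Taken by itself, replicate 1 had promoter peaks at 11 of the 13 ARF genes (84.6%, against 50.3% of all genes) and replicate 2 at 7 (53.8%, against 48.1%). ARF1, ARF4, ARF8, ARF10 and ARF16 had a promoter peak in replicate 1 and none in replicate 2, which is 38.5% of the family against 12.1% of all genes. ARF7 was the single ARF gene with the opposite pattern (7.69%, against 9.91%). At ARF8 and ARF16 the peak itself was shared by both lists, and only its promoter annotation differed. For Aux/IAA genes the lists were closer, with promoter peaks at 18 genes in replicate 1 (62.1%) and 19 in replicate 2 (65.5%). When an overlap of 50% of both peaks was required, 4 ARF genes kept a shared promoter peak (30.8%, against 30.3% of all genes). With peaks of a −log10 q of 5 or more alone, 7 Aux/IAA and 3 ARF genes had a shared promoter peak (24.1 and 23.1%, against 16.8%), and 10 and 5 had a shared peak in any region (34.5 and 38.5%, against 28.2%).

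Among the Aux/IAA promoters the strongest shared peak was at IAA27, also named PAP2 for phytochrome-associated protein. This peak lay on chromosome 4 from 14326680 to 14327304 in replicate 1 (TAIR10, 1-based, as for all coordinates below) and from 14326654 to 14327028 in replicate 2. Its pileup was 116 and 101 fragments and its fold enrichment 2.47 in replicate 1 and 2.26 in replicate 2. The mean of 2.36 ± 0.15 (SD, n = 2) was higher than that of 91.7% of genes with a shared promoter peak. IAA27 also had a peak over a coding exon, from 14324855 to 14325280, with 2.40- and 2.39-fold enrichment. It was the only Aux/IAA gene with a shared promoter peak and a separate shared peak in its gene body. In the ARF family that arrangement was counted at ARF11, while the overlapping gene-body peaks of ARF2 were left out by the pairing.

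Next came 3 Aux/IAA promoters with a mean of 2 or more. IAA33, which encodes a protein without the usual degron, had a peak on chromosome 5 from 23268195 to 23268591 with 1.99- and 2.15-fold enrichment in replicates 1 and 2. The same peak was annotated to the promoter of its neighbour AT5G57410. IAA34, another gene of the degron-lacking group, had 2.05- and 2.01-fold on chromosome 1 from 5183917 to 5184386, in a peak that lay over coding exons and introns of AT1G15060 too. A second promoter peak of IAA34, from 5184756 to 5185097, had 1.50- and 1.78-fold. IAA1, whose dominant axr5 mutation makes plants auxin resistant, had 2.05- and 1.97-fold in a peak that ran into its own coding exon and was annotated to the promoter of AARE as well. A mean of at least 2 at a shared promoter peak was reached by 13.8% of Aux/IAA genes and 15.4% of ARF genes, against 12.4% of all genes.

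The other Aux/IAA promoter peaks had means from 1.60 to 1.98. IAA13, close in sequence to the embryo root regulator IAA12, had 2.06- and 1.90-fold enrichment. IAA2 had 1.96-fold in both lists, with summits 464 bp apart, in a peak annotated to the promoter of AT3G23020 as well. IAA16 had 1.95- and 1.90-fold in a peak that also covered the peptide hormone gene RALFL21. IAA7 (AXR2), a repressor of gravitropism and root hair growth when stabilised, had 1.92- and 1.77-fold. These values lay near the median of 1.90 over all genes with a shared promoter peak. IAA20 had a pair of shared promoter peaks, one with 1.92- and 1.68-fold and one with 1.68- and 1.91-fold. IAA28, a repressor of lateral root founder cell formation, had 1.58- and 2.01-fold, a wider spread than at its neighbours in this order. Replicate 1 had 2 further IAA28 promoter peaks, of 1.62- and 2.02-fold, that replicate 2 lacked. The lowest values in this order were those of IAA15 (1.78 and 1.72), IAA5 (1.74 and 1.67), IAA3 (1.77 and 1.53) and IAA30 (1.62 and 1.57). They rank the shared promoter peaks only: IAA15 also had a 2.17-fold peak over coding exon and intron in replicate 2 alone. IAA3, or SHY2, limits root meristem size under cytokinin, and its promoter peak was higher than that of 10.5% of genes with one.

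Gene bodies held the strongest shared peak of all 42 genes. It lay over a coding exon of IAA32, a gene of the degron-lacking group, on chromosome 2 from 118055 to 118414 in replicate 1 and from 117995 to 118506 in replicate 2. Pileups of 119 and 117 fragments gave 2.50- and 2.69-fold enrichment, a mean of 2.59 ± 0.14 (SD, n = 2) that exceeded 96.1% of all shared peaks. Replicate 2 alone had an IAA32 promoter peak, of 2.20-fold. IAA18, a repressor of lateral root initiation when stabilised, had 2.28- and 2.17-fold over coding exon and intron, on chromosome 1 from 19305768 to 19306384. Both values of IAA32 and of IAA18 were above the median of 1.92 that all genes had for their strongest shared peak.

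Of the remaining gene-body peaks of this family, those of IAA26, IAA9 and IAA4 differed more between lists than that of IAA32, and those of IAA29 and IAA14 less. IAA26 (PAP1) had 105 fragments and 2.29-fold enrichment in replicate 1, and 75 fragments and 1.75-fold in replicate 2, on chromosome 3 from 5613716 to 5614311. IAA9 had 1.59- and 2.14-fold and IAA4 1.56- and 2.04-fold, higher in replicate 2 in both cases. The summits of the shared IAA4 peak lay 264 bp apart in the lists, and those of the shared IAA9 peak 44 bp apart. IAA9 also had an intron peak of 2.18-fold in replicate 1 alone and a promoter peak of 2.17-fold in replicate 2 alone. IAA29 had 1.85- and 1.99-fold. IAA14 (SOLITARY ROOT), which blocks lateral root initiation when stabilised, had the weakest shared peak of the 42 genes, with 71 and 61 fragments, 1.64- and 1.50-fold enrichment and a −log10 q of 1.97 in replicate 2. Its peak lay 3113 bp from one of the strongest in the lists, the 10.8- and 9.66-fold peak over coding sequence of NF-YB3 on chromosome 4 from 8344606 to 8345125. That peak was annotated to other genes and to neither IAA14 nor IAA1, the next Aux/IAA gene along the chromosome. Near the tandem gene pair IAA3 and IAA17, a 3.09- and 3.16-fold peak lay over AT1G04230, 1754 bp from the IAA3 peak, and was annotated to neither gene of the pair.

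**Figure D3:**
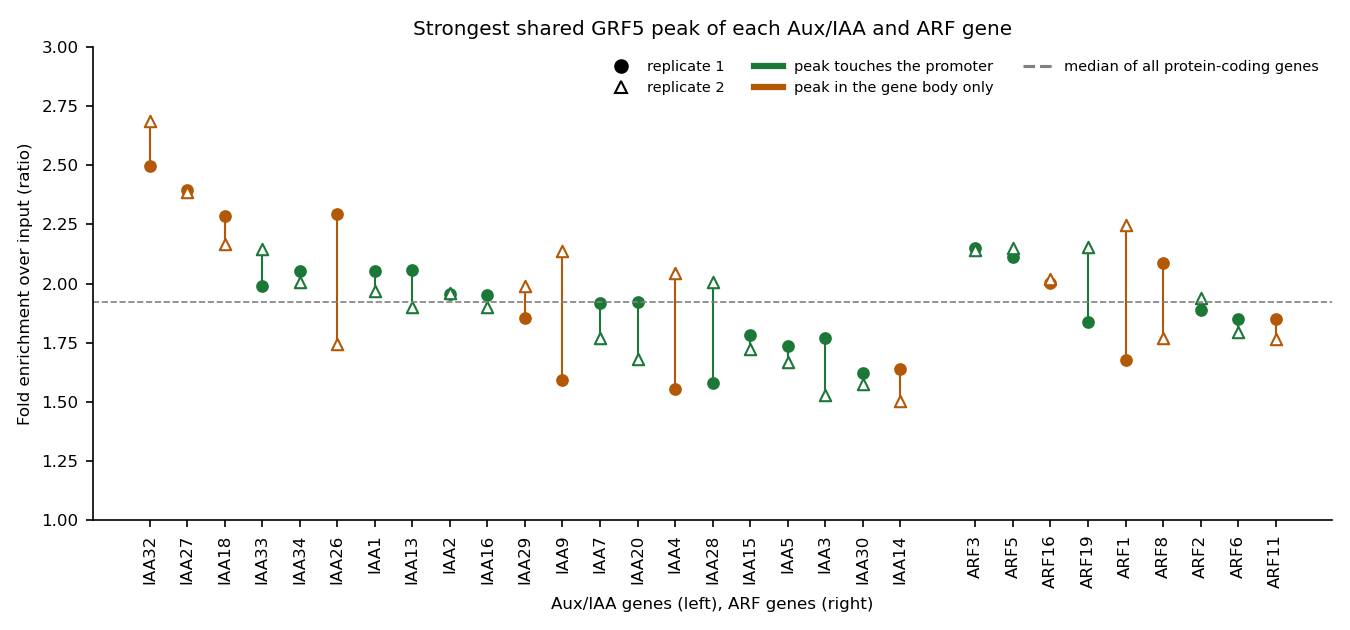
Fold enrichment of the strongest shared GRF5 peak of the 30 genes that have one, in replicate 1 (filled circles) and replicate 2 (open triangles), ordered by mean within each family, with green for peaks that touch the promoter and brown for peaks in the gene body only. IAA32 is highest (2.50 and 2.69) and IAA14 lowest (1.64 and 1.50), around a dashed median of 1.92 for all nuclear protein-coding genes with a shared peak; the IAA27 peak drawn is the one over its coding exon.

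The Aux/IAA genes were also split by whether their proteins are known to carry the usual degron, a grouping taken from background knowledge and not checked on protein sequences. Of 6 genes whose proteins lack all or part of it, 4 (IAA20, IAA30, IAA33 and IAA34) had a promoter peak in both lists (66.7%, with 35.2% over all genes), and IAA32 had its peak in the coding exon. IAA31 was the one of this group with no peak. Of the 23 genes for proteins with the degron, 10 had a shared promoter peak (43.5%) and 16 a shared peak in any region (69.6%, against 54.4% of all genes). The median promoter enrichment was 1.92 for the first group and 1.89 for the second, against 1.90 for all genes. A difference in share between groups of 6 and 23 genes was not tested.

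Among the ARF genes, those for activators of transcription are ARF5, ARF6, ARF7, ARF8 and ARF19, and a shared promoter peak was present at 3 of these 5 (60.0%, where all genes had 35.2%). ARF5 (MONOPTEROS), needed for the embryonic root, had a broad peak on chromosome 1 from 6883808 to 6885204 with 92 and 86 fragments and 2.11- and 2.15-fold enrichment. ARF19 had 1.84- and 2.15-fold, on chromosome 1 from 6634441 to 6634817 in replicate 1. A second ARF19 promoter peak, of 2.15-fold, was called in replicate 1 alone. ARF6, which with ARF8 governs flower maturation, had 1.85- and 1.80-fold. ARF8 had 2.09- and 1.77-fold over coding exon and intron, on chromosome 5 from 14629424 to 14630261, and this peak was assigned to its promoter in replicate 1 only.

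ARF7 (AT5G20730), the partner of ARF19 in lateral root initiation, had peaks in both lists and no shared one. In replicate 1 a 1.54-fold peak and in replicate 2 a 1.52-fold peak over coding exon and intron overlapped by 196 bp, which is 43.1% of the shorter peak and just under the limit used. A promoter peak of ARF7 with 1.82-fold enrichment was called in replicate 2 alone. ARF7 and ARF19 thus differed in these lists, ARF19 with a shared promoter peak and ARF7 without.

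Of the 5 ARF genes that are neither activators nor targets of miR160, 3 carried a promoter peak in both lists (60.0%, with 35.2% over all genes). ARF3 (ETTIN), a regulator of organ polarity and of the gynoecium, had the highest ARF value, with 96 and 89 fragments and 2.15- and 2.14-fold enrichment on chromosome 2 from 14328845 to 14329482. Its mean of 2.15 ± 0.01 (SD, n = 2) was higher than that of 80.9% of genes with a shared promoter peak. Another ARF3 promoter peak, of 2.07-fold, was called in replicate 1 alone. ARF2, a repressor of organ and seed growth, had 1.89- and 1.94-fold. Its gene-body peaks of 1.78-fold in replicate 1 and 1.81-fold in replicate 2 overlapped by 201 bp, which is 77.6% of the shorter peak. They were not counted as shared, because the replicate 2 peak was paired with another peak. ARF11 had 1.72- and 1.63-fold in its promoter and 1.85- and 1.76-fold over coding exon and intron. Another ARF11 promoter peak, of 2.03-fold, was called in replicate 2 alone. ARF1 had 1.68- and 2.25-fold in its gene body, on chromosome 1 from 21979610 to 21980485, with summits 464 bp apart. Replicate 1 alone had an ARF1 promoter peak of 1.83-fold and a coding exon peak of 1.95-fold. ARF4 (AT5G60450), which acts with ARF3, had unmatched peaks of 1.64- and 1.94-fold in replicate 1 and of 1.55-fold in replicate 2.

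The genes ARF10, ARF16 and ARF17 are cut by miR160 and act in the root cap and in adventitious rooting. A promoter peak in both lists was found at none of these 3, beside 35.2% over all genes. ARF16 had a shared intron peak of 2.00- and 2.02-fold enrichment, on chromosome 4 from 14705744 to 14706373, which replicate 1 also assigned to the promoter. ARF10 (AT2G28350) had a single 1.45-fold promoter peak in replicate 1, and ARF17 (AT1G77850) had peaks of 1.94- and 1.84-fold over intron and coding exon in replicate 1. Replicate 2 had no peak at either gene.

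Sister genes, pairs taken to be close in sequence, were compared after their values had been seen and are given as a description. The pairing was not checked on sequences, and the list of 11 pairs does not cover all 42 genes. Left out without a shared promoter peak were IAA8, IAA9, IAA17, IAA18, IAA19, IAA26, IAA29, IAA31, ARF1, ARF4 and ARF17. Left out with one were IAA15, IAA16, IAA27, IAA28, IAA33, ARF2, ARF3, ARF5 and ARF11. The split below thus depends on which pairs were listed, and is not read as a trait of sister genes. Single genes had a shared promoter peak at 47.6% of the 42 and 35.2% of all genes. In 2 of 11 pairs, IAA1 with IAA2 and IAA20 with IAA30, both genes had a shared promoter peak. In 7 pairs one gene of the pair had it: IAA3, IAA5, IAA7, IAA13, IAA34, ARF6 and ARF19 did, whereas IAA4, IAA6, IAA14, IAA12, IAA32, ARF8 and ARF7 did not. Neither gene had it in the pairs IAA10 with IAA11 and ARF10 with ARF16.

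Several Aux/IAA genes had peaks that 1 list alone supported. IAA19 (MSG2, AT3G15540), a repressor of tropic growth, had a 2.01-fold promoter peak in replicate 1 and none in replicate 2. IAA6 (AT1G52830) had promoter peaks of 1.54- and 1.69-fold in replicate 1. IAA17 (AXR3, AT1G04250) had promoter peaks of 1.52- and 1.84-fold in replicate 1, and replicate 2 had a coding exon peak of 1.86-fold in their place. In replicate 2 alone, IAA12 (BODENLOS, AT1G04550), the repressor of ARF5 in the embryo, had a promoter peak of 1.85-fold, and IAA8 (AT2G22670) one of 1.89-fold. IAA11 (AT4G28640) had gene-body peaks of 1.62-fold in replicate 1 and 1.70-fold in replicate 2 that did not overlap. Over both families, 30 peaks in replicate 1 and 19 in replicate 2 were not shared for the gene, with fold enrichments from 1.39 to 2.18 in replicate 1 and from 1.44 to 2.20 in replicate 2. These ranges overlap those of the shared peaks.

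The 34 shared peaks of the 42 genes lay in the bulk of all shared peaks. Their mean fold enrichment ran from 1.57 to 2.59 with a median of 1.92, against a median of 1.89 over all 19008 shared peaks, and none reached 3, a level that 1.71% of all shared peaks had. The log2 ratio of replicate 1 to replicate 2 had an SD of 0.19 over these peaks and 0.19 over all. Summits lay within 100 bp of each other at 26 of the 34 (76.5%), against 65.2% of all shared peaks. Of the 34 peaks, 18 touched the promoter and no other part of the gene, 4 (at IAA1, IAA2, IAA3 and IAA28) ran from the promoter into a coding exon, and 12 lay in the gene body. Another gene was annotated to 13 of them, so the peak cannot be assigned to the Aux/IAA or ARF gene alone. The share of such peaks among all shared peaks was not computed, so the count is not read as a trait of these genes. Fewer peaks of replicate 1 found a partner at these genes than elsewhere: 34 of 64 (53.1%) were paired, against 67.0% of all its nuclear peaks, while in replicate 2 it was 35 of 53 (66.0%, against 70.3%).

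**Figure D4:**
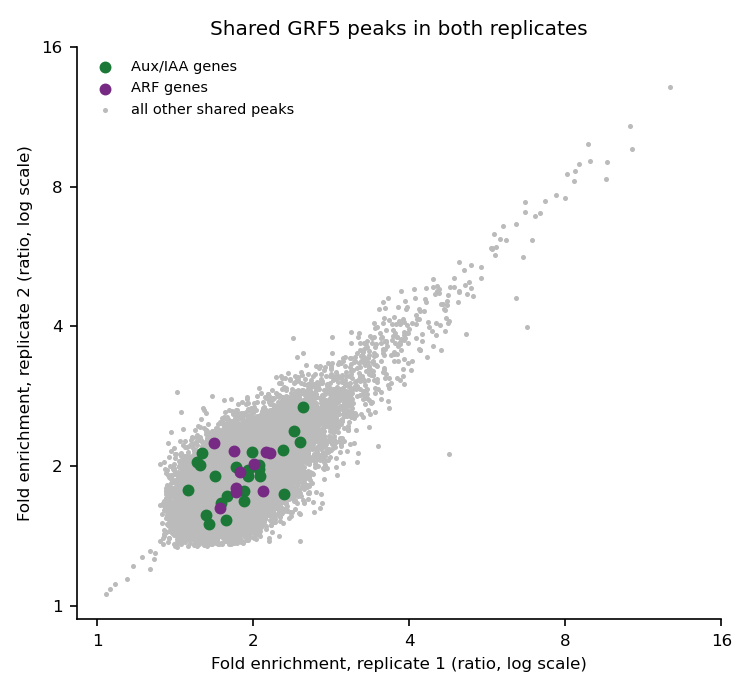
Fold enrichment of each shared peak in replicate 1 (x axis) and replicate 2 (y axis), both on log scales, for Aux/IAA genes, ARF genes and all other shared peaks. The peaks of both families lie below 3 in both lists, inside the dense part of the cloud, and the strong peaks at the upper right belong to other genes.

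The median over genes with a shared promoter peak was 1.89 for Aux/IAA genes and 1.95 for ARF genes, against 1.90 for all nuclear protein-coding genes. In the single lists these medians were 1.94 and 1.90 for Aux/IAA genes in replicates 1 and 2, 1.87 and 2.04 for ARF genes, and 1.90 and 1.91 for all genes. With shared peaks, Aux/IAA genes were thus above all genes in replicate 1 and ARF genes in replicate 2. Over the promoter peaks of a single list, shared or not, both families were above all genes in both lists. Replicate 1 then had medians of 1.94 for Aux/IAA and 1.94 for ARF genes, against 1.86 for all genes, and replicate 2 had 1.91 and 2.03, against 1.87. Which peaks were counted thus decided the order of the medians.

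The rest of the auxin signalling chain was counted from a list of 32 genes. A shared promoter peak was present at 14 of them (43.8%, against 35.2% of all genes) and a shared peak in any region at 18 (56.2%, against 54.4%). The auxin receptor genes had 2 promoter peaks among 6, at TIR1 (1.93- and 2.21-fold) and AFB2 (1.73- and 1.43-fold). The TOPLESS-type co-repressor genes had 1 among 5, at TPR4, with 1.83- and 2.19-fold, while TPL had a 2.33- and 2.81-fold peak outside its promoter. Of 4 genes for the ubiquitin ligase that marks Aux/IAA proteins and for its activation, CUL1 and RBX1 had one. GH3 genes, which encode auxin-conjugating enzymes and respond to auxin, had one at 4 of 8: GH3.1, GH3.3, GH3.9 and GH3.17. Of 9 further ARF genes, ARF9, ARF12, ARF13, ARF18 and ARF20 had one, with means from 1.68 to 2.04.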

How the data were processed

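The submitters' processing notes name Trimmomatic 0.39, Bowtie2 2.4.6, MACS2 2.2.7.1 and the TAIR10 build, with no role or order. Per the file headers, peaks of each replicate were called by the authors on their own, with 1 shared input library as control; the sources used here give neither caller settings nor the promoter length. The deposited signal is the fragment pileup at the summit, the deposited fold enrichment is a ratio over the input-based background, and the deposited −log10 p and −log10 q belong to the summit. All peaks had a q of at most 0.05. Starts count from 0 in the deposited lists, whose lengths are end minus start, and were raised by 1.

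Entries were collapsed to peaks, organelle peaks were left out, and peaks were paired 1 to 1 between lists, longest overlap first. The pairing was tested on simulated peaks that had a single possible partner of equal length. Competition between peaks for a partner was thus not tested. Region and gene are the authors' annotation. A gene's value is its strongest shared peak, as the mean of both replicates. Families were described by counts and medians beside all nuclear protein-coding genes, with no test. Gene types, symbols and gene lengths came from the RefSeq table of TAIR10.1; none of its coordinates were used. The members and lists were chosen with earlier results of these data known. Named were all 42 members, with values for each shared promoter peak and coordinates for the 6 per family with the highest shared peak. The planned search for the GRF core motif and for degrons was not run, since no sequences were used here, and the planned background by protein length was replaced by gene length. Python 3.11.15, numpy 2.4.6, pandas 2.3.3 and matplotlib 3.10.9 were used.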

Additional observations from a re-analysis of the deposited data

How the results depend on the processing

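Counts and medians of both families were recomputed under 5 alternatives. Of 30 recomputed values, 21 stayed within 1.5 times the count or within the spread between replicates. The limit for counts is wide: a fall from 6 to 4 ARF genes with a shared promoter peak counted as within it. Restricted to peaks with a −log10 q of 5 or more, shared promoter peaks were left at 7 Aux/IAA and 3 ARF genes (16.8% of all genes), shared peaks in any region at 10 Aux/IAA and 5 ARF genes (28.2% of all genes), and the medians were 2.01 for Aux/IAA and 2.13 for ARF genes (2.09 for all genes). The 10 genes left with a promoter peak, IAA1, IAA2, IAA13, IAA16, IAA27, IAA33, IAA34, ARF2, ARF3 and ARF5, were all among the 20. With an overlap of at least 50% of both peaks, ARF genes with a shared promoter peak were 4 of 13, a share near that of all genes (30.8%, against 30.3%), and the Aux/IAA median was 1.84. An overlap of 1 bp added ARF7 to the genes with a shared peak. Leaving out 1 replicate gave 18 to 19 Aux/IAA and 7 to 11 ARF genes with a promoter peak (48.1 to 50.3% of all genes). It gave 25 Aux/IAA genes under either and 11 to 13 ARF genes with any peak (68.2 to 70.0% of all genes). The medians were then 1.91 to 1.94 for Aux/IAA and 1.94 to 2.03 for ARF genes (1.86 to 1.87 for all genes), above all genes in both lists, whereas the Aux/IAA median over shared peaks was below (1.89, against 1.90). The cause of these shifts was not tested beyond the smaller number of peaks kept at the stricter q. No paired analysis was possible because the result comes from no test and the input has no second library. Depth is known only through the pileups, so a gene without a peak is one where none was called at this depth.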
